A study of Mus musculus with 4 samples.

Results

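The transcripts described here are those of p53 and a set of its direct targets and regulators in mouse colon epithelial cells. The set was chosen by name, with earlier results of these data known, as Trp53, Mdm2, Mdm4, Ccng1, Zmat3, Trp53inp1, Bbc3, Perp, Phlda3 and Sesn1. Every probe set carrying 1 of these symbols in the platform annotation was taken. This gave 16 probe sets of the 22690 on the array, for 9 of the 10 genes. No probe set was named Trp53 in the annotation used, so the transcript of p53 itself was not analysed here. Of the 9 genes, 7 had a probe set that was measured on all arrays and was bright enough to be tested, Mdm4 was too dim on its probe set with values on all arrays, and Sesn1 had values at 1 date only.

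p53 is a transcription factor that is kept low in unstressed cells because the ubiquitin ligase Mdm2 marks it for degradation. DNA damage and other stresses stabilise the protein, which then switches on genes for cell cycle arrest, DNA repair, cell death and its own restraint, Mdm2 among them. p53 is regulated mainly as a protein, and arrays measure RNA. In the colon, this response is known for removing or arresting damaged crypt cells, and the gene is often mutated in colorectal cancer.

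The cells were YAMC, a line from young adult mouse colon epithelium. They were left without treatment in the untreated group and received conditioned medium of Lactobacillus GG, a probiotic bacterium, for 16 h in the LGG group. RNA of each group was hybridised to 2 mouse 430A arrays, 1 at each of 2 dates given in the array titles, called date 1 and date 2. What the dates mark and whether the arrays came from separate cultures are not stated. The p-values rest on the spread left between these arrays after group and date, mostly as shared across genes. This spread may be technical. YAMC cells are known to be immortalised with a temperature-sensitive large T antigen, a viral protein that binds p53 and blocks its activity while the antigen is functional. The antigen would be shared by both groups, and the culture temperature is not given in the sources used here. Unconditioned medium was not analysed here as a control, so effects of bacterial products and of the medium cannot be told apart.

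The arrays had trimmed means (2% cut from each end) of 500.1 to 513.5, and the small number of arrays limits the precision of every value. Both arrays of date 1 lacked a value for 6307 probe sets. In all, 6952 genes were tested. Of the markers of colon epithelium, Krt8, Krt18 and Krt19 were above the intensity required for testing, and the other 9 with values on all arrays were below it, among them Epcam at 6.0 to 9.0 and Vil1 at 1.7 to 10.5. Of 9 fibroblast markers 6 were above it, and the summed intensity of the 9 was 37609 and 32367 in untreated cells and 29481 and 27103 with LGG. Much of that difference lay in Dcn, at 7734 and 8376 untreated and 4085 and 4474 with LGG (limma, adjusted p = 0.00140). The other 5 tested did not pass, with log2 changes from -0.59 for Col1a2 to -0.02 for Acta2. Of the epithelial markers only Krt8, Krt18 and Krt19 thus fitted the label, with log2 changes of 0.23, 0.66 and -0.72 with LGG that did not pass. Other defining markers of colon epithelium were dim, among them the keratin Krt20 at 21.9 to 33.2 and the cadherin Cdh1 at 8.7 to 41.8. Transcripts usual in fibroblasts were bright. Of 6 leukocyte markers 2, Cd68 and Cd14, were above the intensity required for testing. The summed intensities of the 6 were 599.0 and 453.7 untreated and 761.0 and 696.8 with LGG. Cd68 measured 146.0 and 101.2 untreated and 274.1 and 289.0 with LGG (limma, adjusted p = 0.0314). Cd14 measured 241.2 and 234.3 untreated and 235.1 and 244.7 with LGG, and Ptprc, which marks all leukocytes, lay between 15.4 and 37.2. Of 4 endothelial markers only Kdr was above the intensity required for testing, and the summed intensities were 398.3 and 309.0 untreated and 487.0 and 452.2 with LGG. Kdr alone carried that difference, at 136.2 and 128.9 untreated and 396.5 and 329.2 with LGG (limma, adjusted p = 0.00924), while Tek measured 149.4 and 96.1 untreated and 36.8 and 51.4 with LGG, and Pecam1 48.0 and 34.1 untreated and 12.1 and 21.3 with LGG. RNA integrity, read from the 3′ over 5′ probe sets of Gapdh, gave ratios of 0.805 and 0.784 in untreated cells and 0.931 and 0.768 with LGG at dates 1 and 2. The part of the marker and integrity differences in the results was not tested. In bulk RNA of this kind, fewer cells of a type and less RNA per cell cannot be told apart.

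Promoter sequences from RefSeq (build GRCm38.p6) were held for 7 of the 10 genes and covered 250 bases before to 50 bases after each annotated start. p53 binds pairs of a 10-base consensus element separated by at most 13 bases. A perfect single element, which reads alike on both strands, was found in 4 of 11 windows of the set, in Mdm2, Ccng1, Trp53 and Sesn1, against 8.36% of all 32851 windows. A perfect pair was found in 0 of the 7 genes and in 0.074% of the 27025 genes with a window. The 250 bases before the start of Mdm2 (chr10:117710759-117711008, minus strand) and of Ccng1 (chr11:40755287-40755536, minus strand) are shown because both genes fell and both hold an element, which stands in capitals. It begins 186 bases before the start in Mdm2 and 185 bases before it in Ccng1.
Mdm2: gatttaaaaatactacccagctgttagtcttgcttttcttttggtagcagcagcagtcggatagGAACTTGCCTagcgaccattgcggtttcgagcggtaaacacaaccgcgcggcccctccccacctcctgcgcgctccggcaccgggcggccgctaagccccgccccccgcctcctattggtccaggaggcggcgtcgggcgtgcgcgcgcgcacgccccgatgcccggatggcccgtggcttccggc
Ccng1: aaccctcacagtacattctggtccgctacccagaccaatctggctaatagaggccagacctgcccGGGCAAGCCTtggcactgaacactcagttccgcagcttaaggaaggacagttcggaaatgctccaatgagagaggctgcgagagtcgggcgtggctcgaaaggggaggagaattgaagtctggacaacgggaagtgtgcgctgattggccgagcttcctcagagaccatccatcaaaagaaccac
Bbc3, Mdm4 and Phlda3 held no perfect element in this window, and Zmat3, Trp53inp1 and Perp had no window in the table used. Elements with mismatches, and elements outside these windows, were not searched for. The matches are a description of the letters in these windows, and binding was not measured.

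The comparison of LGG with untreated cells asks which of these transcripts differ after conditioned medium. Some of these genes were lower in the LGG group. Zmat3, Trp53inp1, Ccng1 and Mdm2 fell, 0 rose, and Phlda3, Bbc3 and Perp did not pass the test (limma with a date block and a Benjamini-Hochberg threshold of 0.05). Of the 7 genes tested, 4 were thus called lower, against 3.5% of all genes tested that were called lower, 3.01% called higher and 6.5% called in either direction. Because the set was chosen with earlier results of these data known, the shares and medians here describe it and do not test it as a set. The fitted falls ranged from 1.35-fold for Perp to 2.35-fold for Zmat3. The median log2 change of the 7 genes was -0.78, against 0.03 for all genes tested. It was -1.01 at date 1 and -0.69 at date 2, where all genes had medians of -0.02 and 0.08. Both LGG arrays lay below both untreated arrays for 7 of the 7 genes, against 22.3% of all genes tested, and all 7 were lower at both dates, against 30.2%. Changes were fitted on log2(intensity + 25.2), a scale that understates the change of dim genes.

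**Figure D1:**
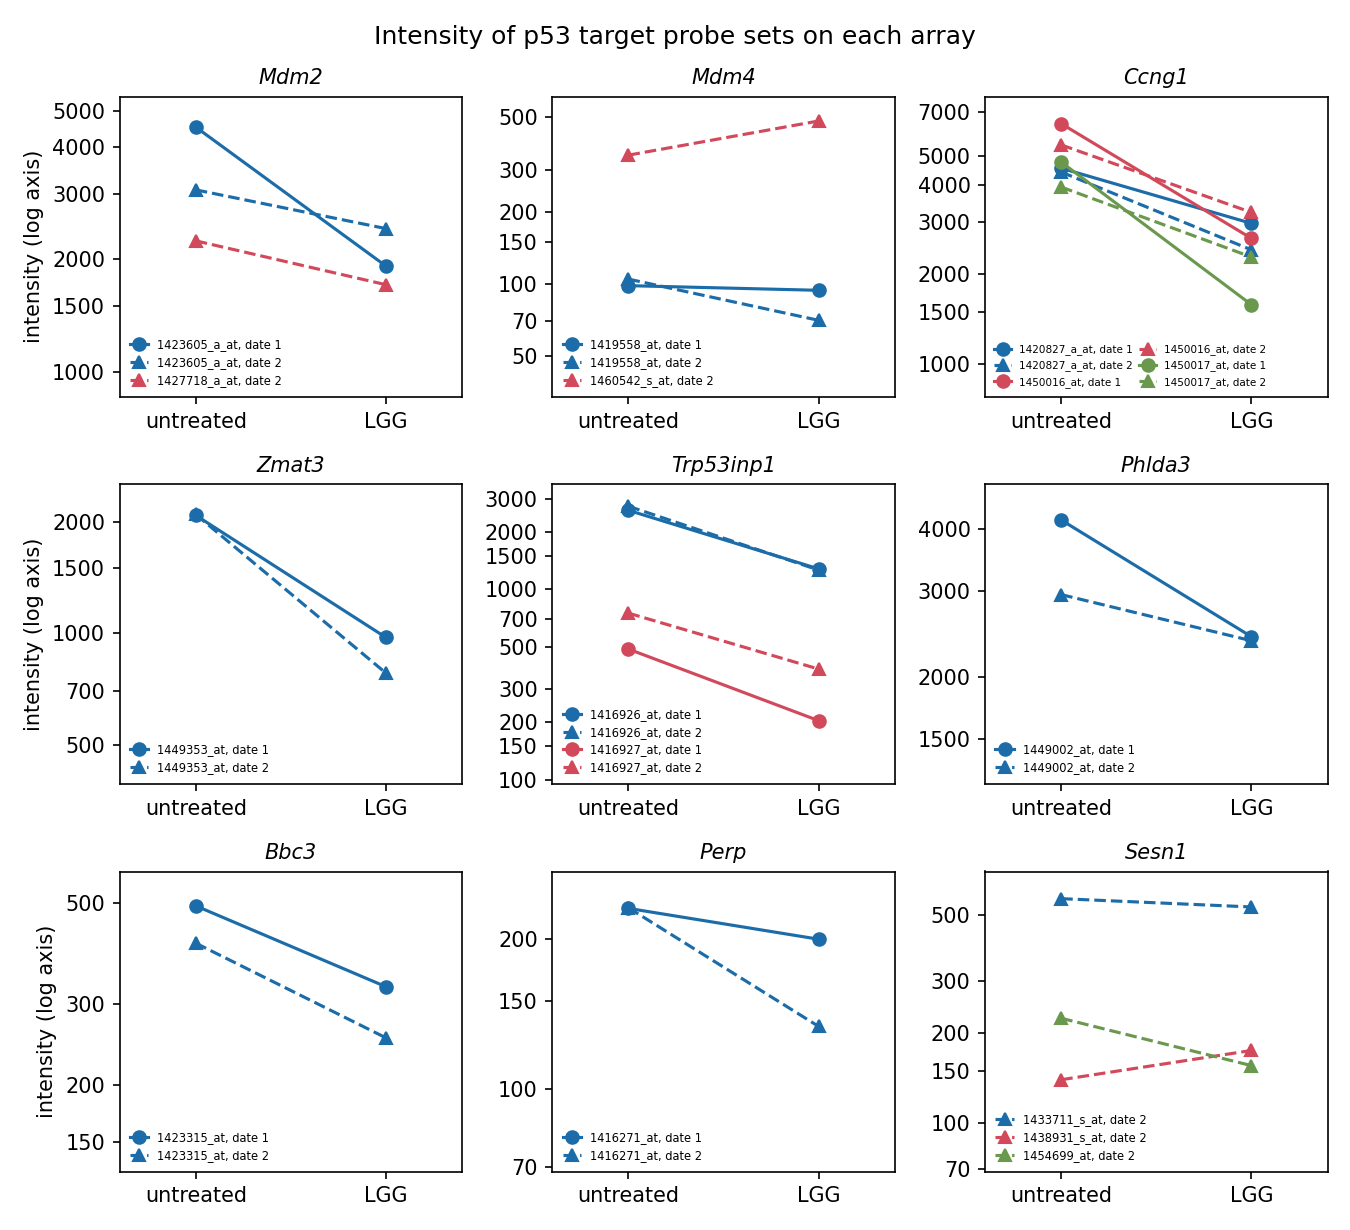
Intensity (log axis) of every probe set of the 9 genes on the untreated and LGG arrays. Each line joins the 2 arrays of 1 date, circles and solid lines for date 1 and triangles and dashed lines for date 2, with 1 colour per probe set. Lines run downward for Mdm2, Ccng1, Zmat3, Trp53inp1, Phlda3, Bbc3 and Perp, and 1 probe set each of Mdm4 and Sesn1 runs upward at date 2.

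Mdm2 and Mdm4 are the restraints of p53. Mdm2, the ubiquitin ligase that degrades p53 and is itself induced by it, measured 4515 and 3069 at dates 1 and 2 in untreated cells and 1920 and 2418 with LGG. The groups did not overlap, but the untreated arrays differed from each other by more than the LGG and untreated arrays of date 2 did. Mdm2 fell 1.72-fold, that is by a log2 change of -0.78 ± 0.20 (± SE throughout, adjusted p = 0.0351 by limma). The log2 ratio was -1.22 at date 1 and -0.34 at date 2. A further Mdm2 probe set, with values at date 2 only, measured 2243 untreated and 1712 with LGG, a log2 ratio of -0.38. The call of Mdm2 was lost in the fit with no date block, where the adjusted p was 0.155, and in 10 of the 12 other settings tried, and without untreated replicate 1 its log2 change was -0.51.

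Mdm4, a relative of Mdm2 that binds p53 and blocks its activation domain, had probe sets that did not move alike. Its probe set with values on all arrays was dim, at 98.2 and 104.6 untreated and 93.9 and 70.3 with LGG, and was not tested. A second probe set, whose suffix (s) marks probes that can match more than 1 transcript or gene, measured 345.4 untreated and 480.1 with LGG at date 2. The probe sets thus differed in sign at date 2, with log2 ratios of -0.44 and 0.45 and 1 array per group.

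Ccng1 encodes cyclin G1, a p53 target that binds a protein phosphatase and helps to activate Mdm2. Its brightest probe set measured 6402 and 5434 in untreated cells and 2641 and 3227 with LGG. The groups lay far apart compared with the spread inside each. Ccng1 fell 2.01-fold, a log2 change of -1.01 ± 0.16 (limma, adjusted p = 0.00272). Another probe set of Ccng1 measured 4759 and 3924 untreated and 1583 and 2287 with LGG (log2 change -1.17, adjusted p = 0.00338), and the remaining one 4539 and 4406 untreated and 2965 and 2416 with LGG (-0.74, adjusted p = 0.0145). All 3 probe sets of Ccng1 therefore fell, although the first pair had the larger ratio at date 1 and the last had it at date 2. Without date as a block the adjusted p of Ccng1 was 0.0509.

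Zmat3, a zinc finger protein that binds RNA and is also known as Wig1, was the gene with the largest fitted fall of the 7. It measured 2080 and 2091 in untreated cells, which were nearly equal, and 974.0 and 780.7 with LGG. Zmat3 fell 2.35-fold, a log2 change of -1.23 ± 0.20 (limma, adjusted p = 0.00272). The date 1 and date 2 log2 ratios were -1.07 and -1.39. Its call was kept without date as a block (adjusted p = 0.0388).

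Trp53inp1 encodes a stress protein that joins p53 in nuclear bodies and takes part in autophagy. It measured 2603 and 2735 in untreated cells and 1281 and 1263 with LGG. Arrays of 1 group were nearly alike, and the ratio was about the same at both dates, with log2 values of -1.01 and -1.10. Trp53inp1 fell 2.08-fold, a log2 change of -1.05 ± 0.18 (limma, adjusted p = 0.00417, and 0.0439 without date as a block). A dimmer probe set of Trp53inp1 measured 485.2 and 749.9 untreated and 204.0 and 381.0 with LGG. Within each group the array of date 2 was higher on it than the array of date 1, yet it had a similar log2 change of -1.04 (adjusted p = 0.0180).

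Counted by probe set, 7 of the 10 tested for these genes were called lower and 0 higher, against 6.55% of all 10333 probe sets called in either direction. Probe sets of 1 gene share a target and are not independent. For no gene of the set did tested probe sets differ in sign. Over 13 alternative settings of the analysis, Zmat3 and Trp53inp1 kept their calls in 10, Ccng1 in 8 and Mdm2 in 2, and none of the 7 genes changed sign in any of those run for it.

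The remaining targets act in survival signalling, cell death and adhesion. Phlda3, which competes with the kinase Akt for membrane lipids and so restrains it, measured 4168 and 2943 in untreated cells and 2419 and 2374 with LGG. The LGG arrays were alike and the untreated array of date 1 stood high. Its log2 change was -0.54 ± 0.17 and did not pass (limma, adjusted p = 0.0847), and without untreated replicate 1 it was -0.29.

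Bbc3, also known as PUMA, a killer protein that inhibits survival members of the BCL2 family, measured 492.7 and 408.3 untreated and 327.9 and 253.5 with LGG. The groups did not overlap and the log2 ratios were -0.55 and -0.64. The log2 change of -0.59 ± 0.24 did not pass (limma, adjusted p = 0.170). Perp, a membrane protein of desmosomes that also promotes cell death, measured 229.8 and 230.4 untreated and 199.4 and 133.5 with LGG. The untreated arrays were nearly equal and most of the difference came from date 2, with log2 ratios of -0.18 and -0.69. Its log2 change was -0.44 ± 0.27 (limma, adjusted p = 0.395), and leaving out LGG replicate 2 gave -0.18.

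Sesn1 encodes a sestrin, which restrains growth signalling by mTOR under stress, and had values at date 2 only. Its 3 probe sets measured 565.6, 139.8 and 224.7 on the untreated array and 530.5, 175.2 and 155.9 on the LGG array. The log2 ratios of -0.09, 0.28 and -0.46 disagree in sign. With 1 array per group they have no test. Among all probe sets of named genes with values at date 2 only and a mean of at least 101 there, 47.9% were lower with LGG.

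**Figure D2:**
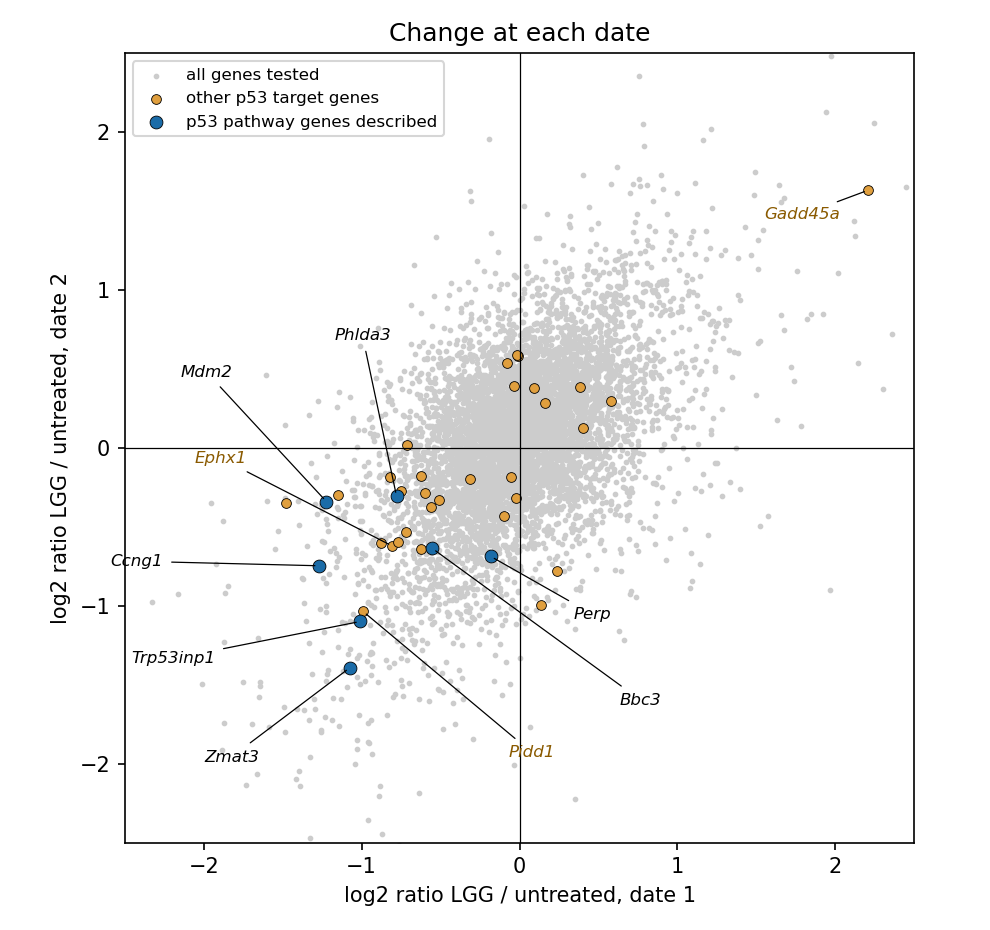
Log2 ratio of LGG to untreated intensity at date 1 (horizontal axis) and at date 2 (vertical axis), 1 point per gene, with all 6952 genes tested in grey and 19 of them outside the plotted range. The 7 genes tested from the set (blue) lie at the lower left, below 0 at both dates. Of the 31 other p53 target genes tested (orange), 18 lie there too, against 30.2% of all genes tested. Above 0 at both dates lie 6 of the 31, Gadd45a at the upper right among them, and 2437 of all 6952 genes tested.

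The same fit also compared date 2 with date 1. Of the 7 genes 0 passed (limma, adjusted p under 0.05), and with 0.388% of all genes tested passing, this count says nothing particular about them. The lowest adjusted p for a difference between dates among their probe sets was 0.266, for the dimmer probe set of Trp53inp1, which was higher at date 2 by a log2 difference of 0.71 ± 0.24. Whether the response to LGG differed between the dates could not be tested with 1 array per group and date. The 3 genes lower by at least 1.5-fold at both dates were Zmat3, Trp53inp1 and Ccng1, a description with no test, against 3.96% of all genes tested.

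A wider list of 47 published p53 targets outside the set, also chosen with earlier results of these data known, was examined beside it. Of these 31 were tested, 4 were too dim, 4 had values at date 2 only and 8 had no probe set in the annotation used. Pidd1 and Ephx1 fell, Gadd45a rose and 28 did not pass. At an unadjusted p under 0.05, 11 of the 31 were lower and 2 higher, where 682 and 732 of all 6952 genes tested were. The median log2 change of the 31 genes was -0.35, against 0.03 for all genes tested, and it was -0.31 at date 1 and -0.27 at date 2. Both LGG arrays lay below both untreated arrays for 15 of the 31, or 48.4% against 22.3% of all genes tested, and above them for 5, or 16.1% against 26.2%. Calls were made for 9.68% of the list and for 6.5% of all genes tested.

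Pidd1, a death domain protein that p53 induces and that activates caspases, measured 613.6 and 439.8 in untreated cells and 296.2 and 201.5 with LGG. The groups did not overlap at either date. The log2 change of Pidd1 was -1.01 ± 0.24 (limma, adjusted p = 0.0218). Ephx1, an epoxide hydrolase that detoxifies xenobiotics, went from 2865 and 3015 to 1629 and 1950 (-0.71 ± 0.17, adjusted p = 0.0264). Both calls were lost in the fit without the date block, where the adjusted p was 0.136 for Pidd1 and 0.112 for Ephx1.

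Gadd45a, a stress sensor that p53 induces but that other stress pathways also control, moved the other way. It measured 166.7 and 185.2 untreated and 861.8 and 626.7 with LGG, a log2 change of 1.92 ± 0.25 (limma, adjusted p = 0.000742). Every LGG value was over 3 times every untreated one. Of the genes with the largest changes that did not pass, Apaf1, the scaffold of the apoptosome, measured 991.0 and 1002 untreated and 339.4 and 782.3 with LGG (-0.91 ± 0.27, adjusted p = 0.0603). Tsc2, which restrains mTOR, measured 756.6 and 715.1 untreated and 401.3 and 461.8 with LGG (-0.74 ± 0.23, adjusted p = 0.0731). Leaving out LGG replicate 1 gave a log2 change of -0.34 for Apaf1, and leaving out LGG replicate 2 gave -1.49, which passed (adjusted p = 0.0109). A second Apaf1 probe set, with values at date 2 only, measured 1358 untreated and 791.7 with LGG, a log2 ratio of -0.76. Of all 10333 probe sets tested, 6.55% were called in either direction. Of 11 further probe sets tested for genes of the list, 2 were called lower and 0 higher, in genes singled out after their values were seen. That of Sesn2, a sestrin, measured 559.8 and 453.1 untreated and 230.0 and 239.2 with LGG (-1.03 ± 0.24, adjusted p = 0.0231), and 1 of Aen, a p53-induced nuclease, had a log2 change of -1.05 (adjusted p = 0.0405). The brightest probe sets of Sesn2 (-0.43, adjusted p = 0.421) and Aen (-0.51, adjusted p = 0.188) did not pass.

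Cdkn1a, the cell cycle inhibitor that is the best known p53 target, was singled out after its values were seen. It measured 6423 and 4976 in untreated cells and 4239 and 4070 with LGG. The groups did not overlap, but the log2 change of -0.44 ± 0.15 did not pass (limma, adjusted p = 0.0953). A second probe set of Cdkn1a had a log2 change of -0.61 (adjusted p = 0.143).

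**Figure D3:**
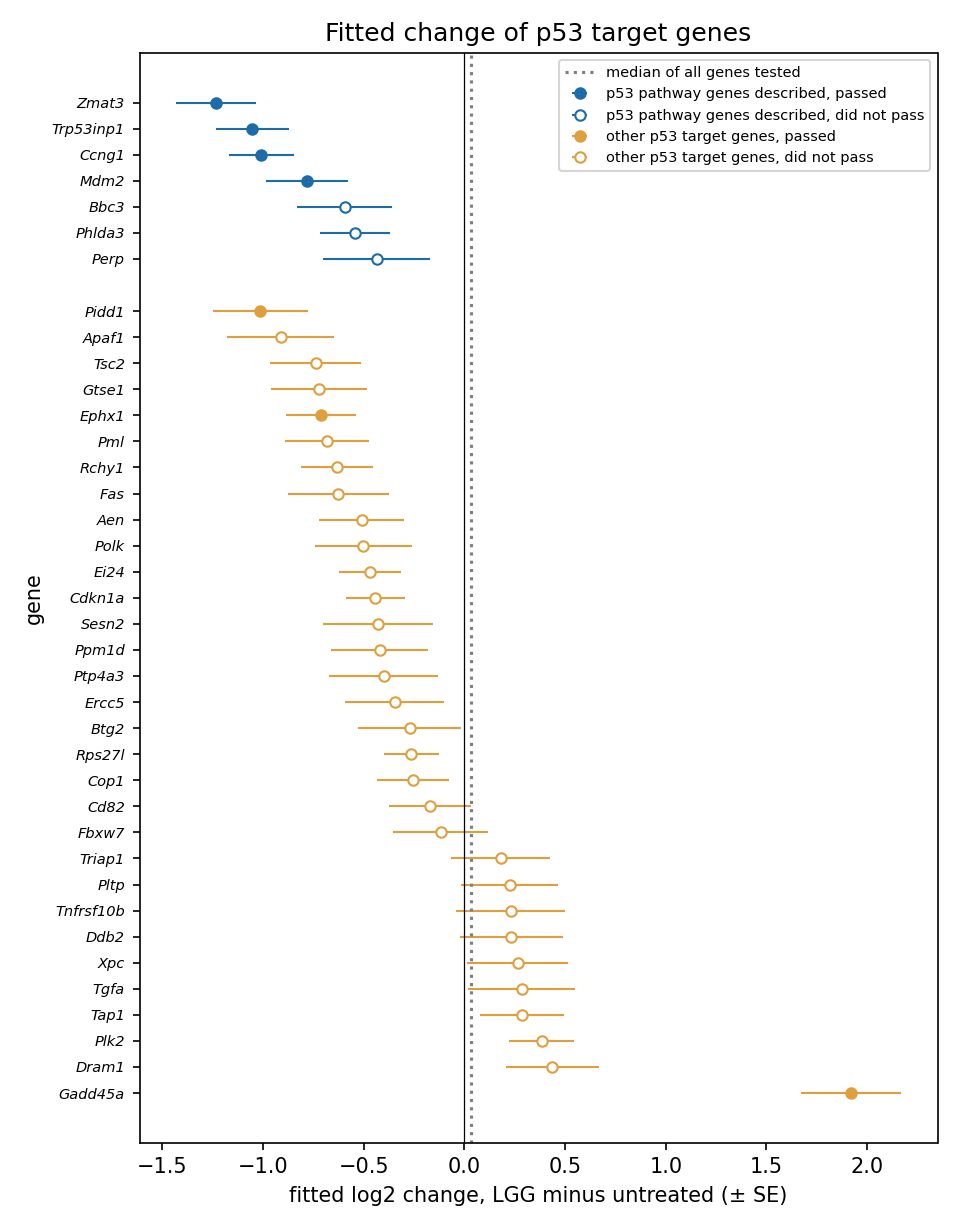
Fitted log2 change of LGG against untreated (horizontal axis, points with SE bars, 2 arrays per group) for the 7 genes tested from the set (blue) and 31 other p53 target genes (orange), ordered by change within each group. Filled points passed the test and open points did not, and the dotted line is the median of all genes tested, 0.03. All 7 blue points lie below 0, from -0.44 for Perp to -1.23 for Zmat3, and Gadd45a is the filled orange point at 1.92.

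Genes that act on p53 were looked at in the same way. Of 28 kinases, acetylases, deacetylases, ubiquitin enzymes and nucleolar proteins listed, 20 were tested on their brightest probe set and 0 were called by limma. At an unadjusted p under 0.05 there were 0 of the 20, against 1414 of all 6952 genes tested. The median log2 change of the 20 was -0.18, against 0.03 for all genes tested. With 6.5% of all genes tested called at the adjusted threshold, 0 calls of 20 is near the background and is no result about these genes. Of their 9 further probe sets tested, 0 were called and 2 had an unadjusted p under 0.05. On their brightest probe sets, the listed genes that moved most with 1 sign at both dates were Banp, a nuclear matrix protein (-0.41 ± 0.26, adjusted p = 0.415), the deacetylase genes Sirt1 (-0.35, adjusted p = 0.495) and Hdac1 (-0.24, adjusted p = 0.499), and Yy1 (-0.24, adjusted p = 0.540). A dimmer probe set of Yy1 had a log2 change of -0.76 (adjusted p = 0.121), and the mean of both gave -0.50. The kinase genes Atm and Chek2, which signal DNA damage to p53, were singled out after their values were seen and had log2 changes of -0.19 and 0.12. Of the p53 family and binding proteins, only Trp53bp1, a DNA repair protein that binds p53, was tested, with intensities of 1139 and 1685 untreated and 1580 and 1692 with LGG (log2 change 0.23, adjusted p = 0.564). The paralogs Trp63 and Trp73 were under the intensity required for testing on every probe set with values on all arrays.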

How the data were processed

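The deposited file held a linear intensity for each probe set on each array, and the software and scaling behind it are not given in the sources used here. Per the labels, RNA was extracted with Trizol and cleaned up with a Qiagen kit. The arrays had nearly equal trimmed means (500.1 to 513.5), so the values were used as deposited. Groups and dates came from the array titles. Values were taken as log2(intensity + 25.2), the pseudocount being 5% of the trimmed mean of 504.9. After 64 control probe sets were set aside, 10333 of the 16319 probe sets with values on all arrays averaged 101 or more (20% of that trimmed mean) and were tested.

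Tests used limma 3.58.1 in R 4.3.3, with group and date in lmFit, a trended eBayes, and p-values adjusted by Benjamini-Hochberg across the 10333 probe sets with a threshold of 0.05. The fit had 1 residual and 12.5 prior degrees of freedom, so a gene's SE rests mostly on variance shared across genes. The dates pair 1 array of each group, and the difference between dates correlated at 0.271 between the groups across probe sets. The brightest probe set stood for each gene. Symbols came from the platform annotation, which gave 1 symbol to 20393 probe sets, several to 691 and none to 1606, and only probe sets with 1 symbol were named. The probe sets' coordinates were not used. The fit was tested on simulated data. Genes and lists were chosen with earlier results of these data known. All genes of the set are named, and of each other list those that passed and up to 4 that moved most with 1 sign at both dates. Alternatives were the fit without date as a block, quantile and median scaling, filters, pseudocounts, eBayes without trend, probe sets averaged per gene and each array left out. Figures were drawn with matplotlib 3.10.9.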

Additional observations from a re-analysis of the deposited data

Results flagged for a closer look

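Probe sets of these genes that lie outside the tested table were looked at because they had a higher value on the LGG array than on the untreated array of date 2. A probe set of Mdm4 measured 480.1 with LGG and 345.4 untreated, and a probe set of Sesn1 measured 175.2 with LGG and 139.8 untreated. Each rests on 1 array per group and has no test, and both carry the suffix that marks probes which can match more than 1 transcript or gene.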

How the results depend on the processing

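Without date as a block 2 genes of the set passed (Zmat3 and Trp53inp1), 1 other p53 target (Gadd45a) and 61 genes in all, against 4, 3 and 452. The fit with no replicate block gave the same log2 changes. With no filter on dim probe sets limma called 0 genes of the set, 0 other targets and 0 genes in all. Of the 8, 35 and 10782 tested in that fit, 6, 14 and 1525 had an unadjusted p under 0.05. Without the intensity trend 2 genes of the set and 244 in all passed. With probe sets averaged per gene 5 genes of the set, 12 other targets and 948 genes in all passed, a fit in which limma estimated 287 prior degrees of freedom. With 1 array left out, in fits without the block, the set had 0 to 3 calls, the other targets 0 to 3, the regulators 0 to 1 (Cdkn2a, without LGG replicate 2) and all genes 0 to 408. The 0 arose without untreated replicate 1 and without untreated replicate 2 (3 and 5 genes of the set at an unadjusted p under 0.05), and 3 calls, Zmat3, Trp53inp1 and Ccng1, were made without either LGG replicate. Mdm2 also lost its call under quantile normalization (adjusted p = 0.0562), median scaling (0.0714), the filter at 50% (0.0523) and the pseudocount at 1% (0.0520). Reversals were counted only for genes of the set and, of each other list, those that passed and up to 4 that moved most with 1 sign. Genes named for other reasons, such as Cdkn2a, Chek2 and Btg2, were not in this count. Within it, reversals were seen in 2 genes that did not pass. With 1 array left out Trp53bp1 ranged from -0.043 (without untreated replicate 1) to 0.51, and Banp from -0.93 to 0.11 (without LGG replicate 2). The causes were not tested. Within 1 date there is 1 array per group and no count of calls. Detection calls were not used here, so no limit from background is given for dim genes such as Mdm4.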

Other observations

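Cdkn2a, whose ARF product inhibits Mdm2, was singled out after its values were seen because its treated arrays moved in opposite directions. It measured 516.7 and 580.8 in untreated cells and 1121 and 302.3 with LGG. The date 1 and date 2 log2 ratios were 1.08 and -0.89. The fitted log2 change was 0.10 ± 0.35 (limma, adjusted p = 0.917), and the difference between the dates was not tested. The brightest probe sets of Sesn2 and Btg2, targets of p53 that also answer to other stresses, had ratios of opposite sign at the dates as well, at 0.14 and -0.99 for Sesn2 and 0.24 and -0.78 for Btg2. A second probe set of each had 1 sign at both dates, at -1.20 and -0.86 for Sesn2 and -0.32 and -0.34 for Btg2. Of the 4 targets measured at date 2 only, Rrm2b, a ribonucleotide reductase subunit, measured 327.4 untreated and 562.1 with LGG. Ddit4, an inhibitor of mTOR signalling, measured 1768 untreated and 991.9 with LGG. Ckap2 measured 3246 untreated and 3219 with LGG, and Plk3 89.7 and 110.2. These values have no test.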
